A study of Rattus norvegicus with 22 samples.

Results

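The genes described are 38 genes of the cell cycle and of DNA replication, chosen by name as cyclins, cyclin-dependent kinases and their partners, replication licensing and fork proteins, enzymes of deoxynucleotide supply, and proteins of mitosis. Of these, 37 were found among the 26276 gene names of the array and Mki67 was not, and 24 had a probe bright enough to be tested.

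Liver RNA of 22 male Sprague-Dawley rats, which were 8 weeks old when feeding began, was hybridized to Agilent rat arrays, with 1 array per rat. The groups CD 3 and CD 14 received a semi-synthetic control diet for 3 months (5 rats) and 14 months (6 rats), and BD 3 (5 rats) and BD 14 (6 rats) received the BASE-diet for the same times. The BASE-diet held 6% salmon fat in place of lard, 8% of a hydrolysed linden flower extract, 8% giant pumpkin puree and 1% of probiotic bacteria, namely Bifidobacterium animals ssp. lactis and Lactobacillus acidophilus LA-5, per the labels. The study's table of the diets lists a smaller part of probiotic than the labels do, and the labels were followed. Each rat, labelled with Cy5, was read against a common reference labelled with Cy3, a mixture of liver RNA from healthy 10-week-old rats outside the experiment. Per the methods, an array of each 3-month group was rejected, and those arrays are not used here. The labels give these dyes on every array, whereas the methods name Cy3 for control rats and Cy5 for BASE-diet rats, and the labels were followed. All values of a rat below are log2 ratios of its liver to that reference, so that 0 is the reference level.

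A cell that enters the cycle passes from G1 to S phase when cyclin D with Cdk4 or Cdk6, and then cyclin E with Cdk2, phosphorylate the retinoblastoma protein and release E2F factors, while inhibitors such as p27 hold the kinases back. MCM helicases loaded on origins then open the DNA, ribonucleotide reductase and thymidylate synthase supply building blocks, and Cdk1 with cyclins A and B drives mitosis. Hepatocytes of an adult liver are nearly all quiescent and return to the cycle after loss of tissue, and the transcripts of S phase and mitosis are known to be more abundant in the growing liver of young animals.

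The signal limited which of these genes could be followed. The scanner software marks each spot as well above background or not, and a probe was taken as such on an array if 0.5 or more of its spots had the mark in Cy5. Probes for which this held throughout at least 1 group were tested. Over the 22 arrays, 77.3% of the gene and array pairs of the 37 genes were well above background in the rat liver, against 71.0% for all genes on the array. In the reference channel the shares were 78.9% and 61.7%. By group, the share in the rat liver was 74.1% in CD 3, where it was lowest, 78.4% in BD 3 and also in CD 14, and 77.9% in BD 14. Over all genes the shares were 67.2% in CD 3, again the lowest, 74.6% in BD 3, 73.5% in CD 14 and 68.7% in BD 14. On all 22 arrays, 22 of the 37 genes were well above background, Cdk2 was so on 21 and Ccnb1 on 19. The share of all spots well above background differed between arrays, from 52.4% in CD 3 replicate 4, whose median Cy5 signal after background subtraction was 21.8, to 93.6% in CD 3 replicate 1, with a signal of 488. The median log2 ratio over all tested probes of an array lay between −0.24 and 0.14.

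**Figure D1:**
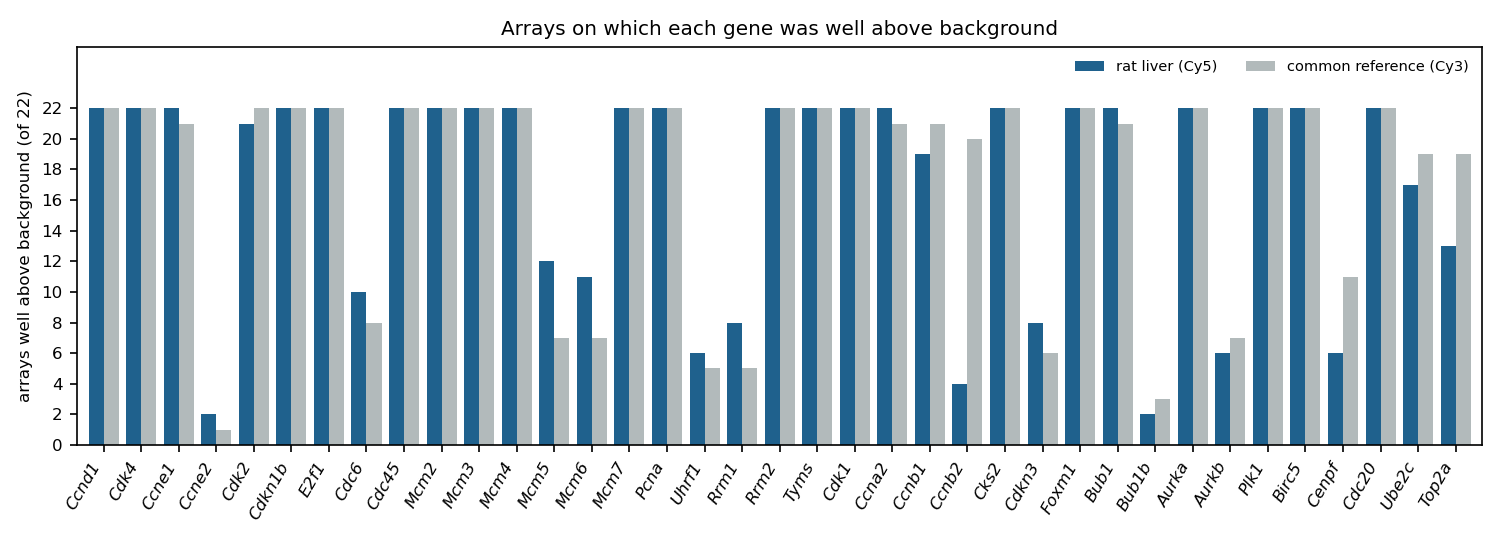
Number of the 22 arrays (vertical axis) on which the main probe of each of the 37 genes on the array was well above background, in the rat liver (Cy5, blue bars) and in the common reference (Cy3, grey bars). Ccnb2 was well above background on 4 arrays in the rat liver and on 20 in the reference.

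The 13 genes that were not tested fell in every role. Cyclin E2 (Ccne2) was well above background in the rat liver on 2 arrays, the spindle checkpoint kinase gene Bub1b on 2, cyclin B2 (Ccnb2) on 4, and the chromatin reader Uhrf1, the mitotic kinase Aurkb and the kinetochore gene Cenpf on 6 each. The large subunit of ribonucleotide reductase (Rrm1) and the phosphatase gene Cdkn3 reached 8 arrays, the licensing factor Cdc6 10, the helicase subunits Mcm6 and Mcm5 11 and 12, topoisomerase Top2a 13 and the ubiquitin-conjugating enzyme Ube2c 17. In the reference, Ccnb2 was well above background on 20 arrays, Ube2c on 19 and Top2a on 19, more arrays than in the rat liver, and the same held for Bub1b, Aurkb and Cenpf. Apart from Ccnb2, Ube2c and Top2a, the untested genes were well above background in the reference on 1 to 11 arrays.

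The tissue label was checked against markers. All 8 hepatocyte markers were well above background on every array, with the probe of Ttr as the brightest in Cy5. At least 3 of 9 leukocyte markers, 5 of 6 of macrophages, 5 of 6 of stellate cells and all 4 each of red cells and endothelium were well above background on every array, and at least 1 of 5 bile duct markers was so on 21 arrays. In such bulk tissue, fewer cells of a type and less RNA per cell cannot be told apart.

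Of the 24 tested genes, the group median was below the reference for 22 in CD 3, where 51.6% of all 19433 tested probes were below it. The count was 19 in BD 3, where 48.5% of all probes were below the reference, 17 in CD 14, where 50% were, and 15 in BD 14, where 43.2% were. Rrm2, Cdk1, Ccna2, Plk1 and Cdc20, or 20.8% of the 24, were below the reference in all 22 rats, as were 1.69% of all tested probes, and the other 19 genes lay below it in some rats and above it in others. The reference came from younger animals, and no group of the study has their age, so that the ratio to it gives a level and no test of age. All ratios share that mixture, which has no replicates of its own. Since the rats were always in Cy5 and the reference in Cy3, a dye difference of a probe cannot be told apart from its level.

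**Figure D2:**
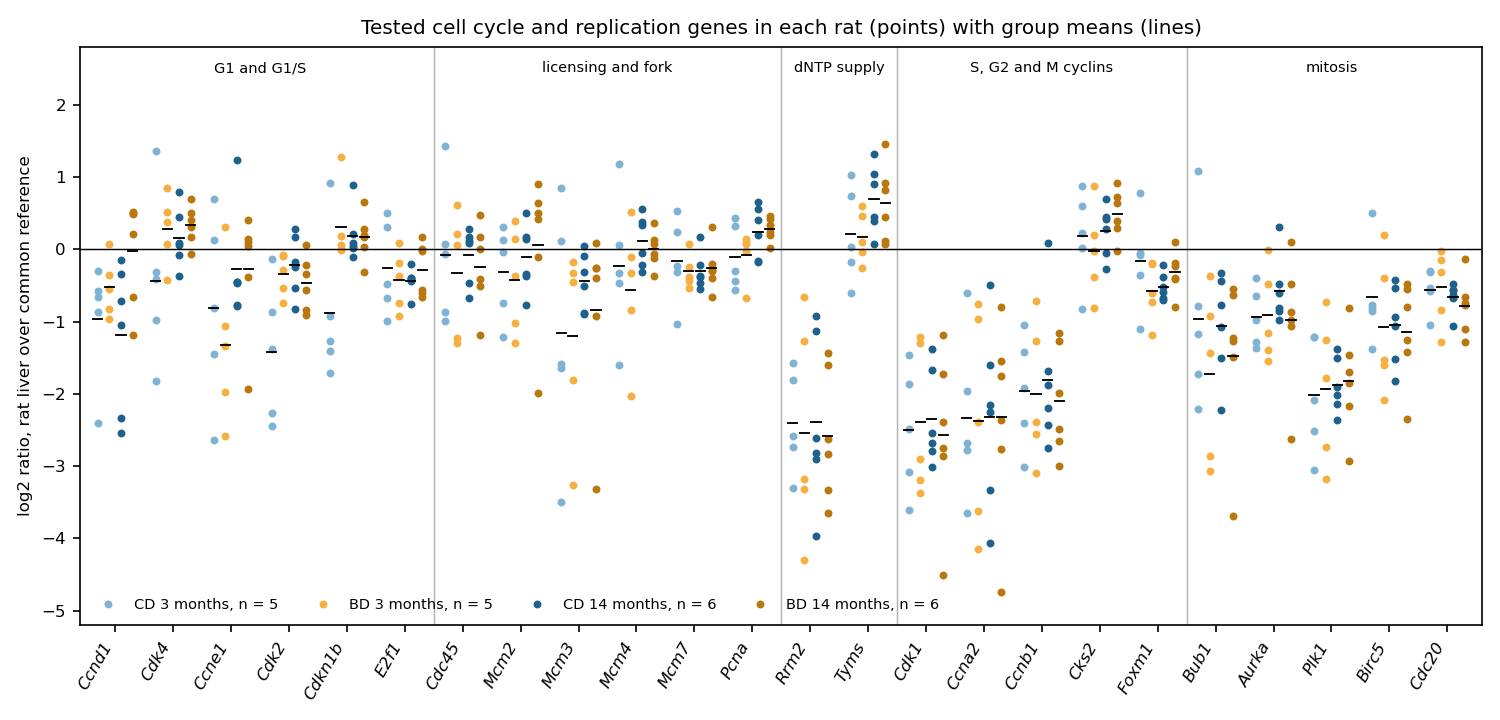
Log2 ratio of the liver of each rat to the common reference (vertical axis) for the 24 tested genes, in order of role, with a point per rat and a black line at each group mean. The points of Rrm2, Cdk1, Ccna2, Plk1 and Cdc20 all lie below 0, and the groups of each comparison overlap for every gene.

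Among the G1 genes, Cdk2 (probe A_42_P785419, chromosome 7, 2000436 to 2000495 of the rat build rn4) encodes the kinase that cyclin E activates at the start of S phase. In CD 3 its log2 ratios were −0.87, −1.39, −2.26, −2.44 and −0.14. In BD 3 they were −0.74, −0.54, −0.08, −0.10 and −0.28. The CD 3 rats were thus mostly lower, but CD 3 replicate 5 lay among the BD 3 rats. At 14 months, the lowest, median and highest values were −0.82, −0.22 and 0.28 in CD 14 and −0.91, −0.45 and 0.06 in BD 14. These groups overlapped over most of their range, and CD 3 replicate 5 lay within both. On 1 array, of CD 3, Cdk2 was not well above background. It thus passed the filter only through BD 3, CD 14 and BD 14. Their means, at −0.35, −0.22 and −0.47, were above that of CD 3, at −1.42. The differences of Cdk2 from CD 3 below depend on that filter. The gene was left out where every array had to be well above background.

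Cdkn1b (probe A_43_P11268, chromosome 4, 171846350 to 171846409) encodes p27, the inhibitor that binds cyclin E with Cdk2. Its log2 ratios in CD 3 were −1.28, −0.92, −1.71, −1.40 and 0.92. In BD 3 they were 0.06, 0.01, −0.01, 1.28 and 0.18. Of the CD 3 rats, 4 lay below every BD 3 rat and replicate 5 lay above all of them but replicate 4. The lowest, median and highest values were −0.11, 0.07 and 0.89 in CD 14 and −0.32, 0.18 and 0.65 in BD 14, so that CD 3 replicate 5 lay above both of those groups.

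Ccnd1 (probe A_64_P155393, chromosome 1, 205361630 to 205361689) encodes cyclin D1, the partner of Cdk4 that responds to growth signals. Its log2 ratios in CD 3 were −0.87, −0.30, −0.58, −2.40 and −0.66. In BD 3 they were −0.36, −0.83, 0.08, −0.97 and −0.55. The 3-month groups overlapped, with CD 3 replicate 4 far below the rest. At 14 months, the lowest, median and highest values were −2.54, −0.88 and −0.15 in CD 14 and −1.19, 0.35 and 0.52 in BD 14. In CD 14, replicates 4 and 5 were the low rats, at −2.54 and −2.34, and in BD 14 replicate 2 was the low rat.

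The question of the comparison between BD 3 and CD 3 is what the diet did within 3 months. By limma, Cdk2 and Cdkn1b were the 2 of 24 genes that were higher in BD 3 at an unadjusted p under 0.05, beside 4.99% of all tested probes, and 0 genes were lower, beside 2.11%. After Benjamini-Hochberg adjustment over the 19433 probes, 0 of the 24 genes passed a threshold of 0.05, as did 0% of all probes, while 1381 probes had an unadjusted p under 0.05. The F test of the methods, followed by Tukey's HSD, also gave 0 genes after adjustment and 2 before. The log2 difference of Cdk2 was 1.07 (standard error 0.34, 95% interval 0.36 to 1.79), with 5 of 5 BD 3 rats above the CD 3 median, an exact two-sided permutation p of 0.0476 and an adjusted p of 0.446. Cdkn1b was higher by 1.18 (standard error 0.37, 95% interval 0.41 to 1.96), also with 5 of 5 rats, an exact two-sided permutation p of 0.0476 and an adjusted p of 0.435. Without CD 3 replicate 5, the differences were 1.39 and 1.63 with adjusted p of 0.0428 and 0.0128, so that both genes passed, as did 0.479% of all probes. With each of the other arrays left out, 0 genes passed, and the adjusted p rose as high as 0.788 for Cdk2 and 0.782 for Cdkn1b.

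Of the 5 CD 3 arrays, 3 (replicates 2 to 4) lay on a slide with no other group. With the slide as a block, Cdk2 differed between BD 3 and CD 3 by −0.14 (unadjusted p 0.706 by limma) and Cdkn1b by 0.99 (unadjusted p 0.0184). On the slide that held 2 BD 3 arrays and 1 CD 3 array, the differences were 0.23 for Cdk2 and 1.31 for Cdkn1b. For the 3 CD 3 arrays that had a slide to themselves, slide and group cannot be told apart. With the slide as a block, here and below, values against CD 3 thus rest on CD 3 replicates 1 and 5. Read from the Cy5 intensities alone, the differences were 0.22 for Cdk2 and 0.83 for Cdkn1b, and neither had an unadjusted p under 0.05.

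The comparison of CD 14 with CD 3 asks what changed with time on the control diet, and it uses the same CD 3 rats as the diet comparison at 3 months. Again Cdk2 and Cdkn1b were the 2 genes that were higher at an unadjusted p under 0.05, beside 6.85% of all probes, and 0 genes were lower, beside 3.29%. By limma 0 genes passed after adjustment, beside 0% of all probes and 1970 probes at an unadjusted p under 0.05, and the methods' test gave 0 genes after adjustment and 2 before. Cdk2 was higher in CD 14 by 1.20 (standard error 0.33, 95% interval 0.52 to 1.88), with 6 of 6 rats above the CD 3 median, an exact two-sided permutation p of 0.0238 and an adjusted p of 0.205. Cdkn1b was higher by 1.07 (standard error 0.36, 95% interval 0.33 to 1.81), with 6 of 6 rats above that median, an exact two-sided permutation p of 0.0433 and an adjusted p of 0.302. Without CD 3 replicate 5 the adjusted p were 0.0162 and 0.00854, beside 1.05% of all probes passing, and without each of the other arrays they stayed above the threshold, up to 0.501 and 0.592. Without CD 3 replicate 4, Pcna and Tyms also had an unadjusted p under 0.05, which made 4 genes. With the slide as a block the differences were −0.19 for Cdk2 and 0.40 for Cdkn1b. On the slide with 1 array of each group they were −0.69 and −0.03. In Cy5 alone they were 0.49 and 0.66, and with array weights 1.09 and 0.78, and of these only Cdk2 with array weights had an unadjusted p under 0.05.

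Markers of cell types were read in the same comparison. Of 6 tested markers of Kupffer cells and macrophages, 4 were higher in CD 14 than in CD 3 at an unadjusted p under 0.05, where 6.85% of all probes were, with a median difference of 1.17 over the list and 0 past the adjusted threshold. Under the slide block 0 of the 6 had such a p and the median difference was 0.37, whereas in Cy5 alone 5 had and it was 1.26. The lowest, median and highest summed Cy5 signal of the list was 2682, 4148 and 7552 in CD 3, and 5034, 11036 and 34233 in CD 14. In BD 3 it was 5677, 7572 and 8470, and in BD 14 it was 6009, 7098 and 13740. The probe of the Kupffer cell lectin Clec4f was the brightest, which does not rank transcripts, and none of the 6 markers was undetected on all arrays. Of the other markers, Ptprc and Nkg7 of 6 tested leukocyte genes and Lyve1 of 4 tested endothelial genes were also higher in CD 14, by 1.34, 1.06 and 1.53, and under the slide block by 0.31, 0.61 and 1.85, where only Lyve1 had an unadjusted p under 0.05. Between BD 3 and CD 3, 0 of the 6 macrophage markers had an unadjusted p under 0.05, with a median difference of 0.68, and 1 of 4 red cell markers, Hbb, was lower in BD 3, at −1.19 and at −1.68 under the slide block. The median difference of the 4 was −0.61, and −1.05 under the slide block. In Cy5 alone, 1 marker of macrophages, 1 of endothelium and 1 of hepatocytes was higher in BD 3 at such a p, and 1 of red cells lower. The median differences of these lists were then 0.96, 0.29, 0.23 and −0.59. Under the slide block, 1 endothelial and 1 stellate marker were higher, where the medians of their lists were 0.62 and −0.33. The macrophage median was 0.54 there. For the marker counts in Cy5 alone and under the slide block, here and below, the share of all probes is not given. They can thus not be set against it. The part of these cells in the values of Cdk2 and Cdkn1b was not tested.

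The comparison of BD 14 with CD 14 asks what the diet did over 14 months. Ccnd1 was the 1 gene that was higher in BD 14 at an unadjusted p under 0.05, beside 3.79% of all probes, and 0 genes were lower, beside 0.803%. By limma 0 genes passed after adjustment, beside 0% of all probes and 893 probes at an unadjusted p under 0.05, and the tests of the methods gave 0 genes before and after adjustment. Ccnd1 was higher by 1.17 (standard error 0.43, 95% interval 0.27 to 2.06), with 5 of 6 BD 14 rats above the CD 14 median, an exact two-sided permutation p of 0.0498 and an adjusted p of 0.934. CD 14 replicates 4 and 5, the low rats of their group, were hybridized on the slide that also held all 6 BD 14 arrays. With the slide as a block, and on that slide alone, the difference was 2.42, with adjusted p of 0.140 and 0.269 by limma. In Cy5 alone it was 0.87, and the unadjusted p was above 0.05. Hepatocyte, macrophage and the other cell type markers gave 1 gene higher in BD 14 at an unadjusted p under 0.05, the hepatocyte gene Hnf4a (0.77, and 0.37 without such a p under the slide block). The median difference over the leukocyte markers was −0.09, and −0.67 under the slide block, and over those of macrophages −0.22 and −0.64. In Cy5 alone, 2 leukocyte markers and 1 endothelial marker were lower at such a p, and 1 stellate marker was higher.

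Between BD 14 and BD 3, the comparison of times on the BASE-diet, limma and the methods' test each gave 0 of the 24 genes at an unadjusted p under 0.05, while 4.76% of all probes were higher and 2.68% lower. After adjustment 0 genes and 0% of all probes passed, and 1446 probes had an unadjusted p under 0.05. The gene nearest to the threshold was Ccne1, which encodes the cyclin E that activates Cdk2. Its log2 ratios in BD 3 were −1.06, −1.97, 0.31, −1.34 and −2.59, and its lowest, median and highest values in BD 14 were −1.94, 0.08 and 0.40. All BD 14 rats but replicate 2 lay above 4 of the BD 3 rats, and the difference was 1.06 (95% interval −0.12 to 2.24). Without BD 14 replicate 2, Ccne1 and Mcm2 had an unadjusted p under 0.05, and without BD 3 replicate 3, Ccne1 and Cks2 had. No slide held arrays of both groups, and the BD 14 arrays shared a slide only with CD 14 replicates 4 and 5. The slide-block values of BD 14 thus pass through those rats, whose Ccnd1 was low, at −2.54 and −2.34. Under the slide block, the difference of Ccne1 changed sign to −0.32, and Ccnd1 was then the 1 gene with an unadjusted p under 0.05, at 2.29 (unadjusted p 0.00465, adjusted p 0.990 by limma) in place of 0.50. In Cy5 alone, Ccne1 (1.92), Mcm3 (1.29) and Mcm4 (1.19) had an unadjusted p under 0.05, and with array weights Ccnd1, Ccne1, Mcm2, Pcna and Tyms had. The shares of all probes at such a p in these settings are not given, so these counts cannot be set against them.

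The interaction of diet and time asks whether the diet difference at 14 months was another than at 3 months. Cdk2 (−1.32, standard error 0.46) and Cdkn1b (−1.20, standard error 0.50) were the 2 genes with a negative interaction at an unadjusted p under 0.05, beside 2.32% of all probes, and 0 had a positive interaction, beside 2.48%. By limma 0 genes passed after adjustment, beside 0% of all probes and 932 probes at an unadjusted p under 0.05, with adjusted p of 0.988 for Cdk2 and 0.998 for Cdkn1b. The same CD 3 rats enter this value. Without BD 3 replicate 4, CD 3 replicate 3 or CD 3 replicate 4, Cdk2 was the only gene below that p. With CD 3 replicate 2 or 5 left out there were 3 genes, the added gene being Cdk4 or Foxm1. With the slide as a block the interactions were −0.11 and −0.87, and Ccnd1, at 2.07, was then the gene with an unadjusted p under 0.05. Of the control arrays, the 14-month side of these values rests on CD 14 replicates 4 and 5, and the CD 3 side on replicates 1 and 5. In Cy5 alone the interactions were 0.055 for Cdk2 and −0.35 for Cdkn1b, and Ccne1, at 2.34, was the gene with such a p. Markers of cell types had interactions too, at a median of −0.89 over the 6 of macrophages and −0.60 over the 4 of endothelium, and 0 of the tested markers of any list had an unadjusted p under 0.05. Under the slide block these medians were −1.12, with 1 marker lower at that p, and −1.11, with 2, and in Cy5 alone −1.24, with 2, and −0.64, with 1. The median of the stellate list was −0.095, and under the slide block it was 0.75, with 1 marker higher at that p. Of the leukocyte markers, 1 was lower at that p under the slide block, and 1 in Cy5 alone. Over the 4 groups, limma's moderated F test called 0 of the 24 genes after adjustment, beside 0.0257% of all probes, and gave 2 genes, Cdk2 and Cdkn1b, at an unadjusted p under 0.05, beside 10.5% of all probes. The methods' F test gave 0 and 2 genes. With CD 3 replicate 1, 3 or 4 left out, limma's F test gave 1 gene before adjustment, and without BD 14 replicate 2, CD 14 replicate 2, CD 14 replicate 6 or CD 3 replicate 2 it gave 3. Without CD 3 replicate 5, limma's F test called both after adjustment, at 0.0417 and 0.0116, beside 0.720% of all probes.

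The groups of 0 of the 24 genes were free of overlap in any of the 4 comparisons of 2 groups. Among all probes, 0.756% did not overlap between BD 3 and CD 3, 0.767% between BD 14 and CD 14, 0.515% between CD 14 and CD 3, and 2.26% between BD 14 and BD 3.

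**Figure D3:**
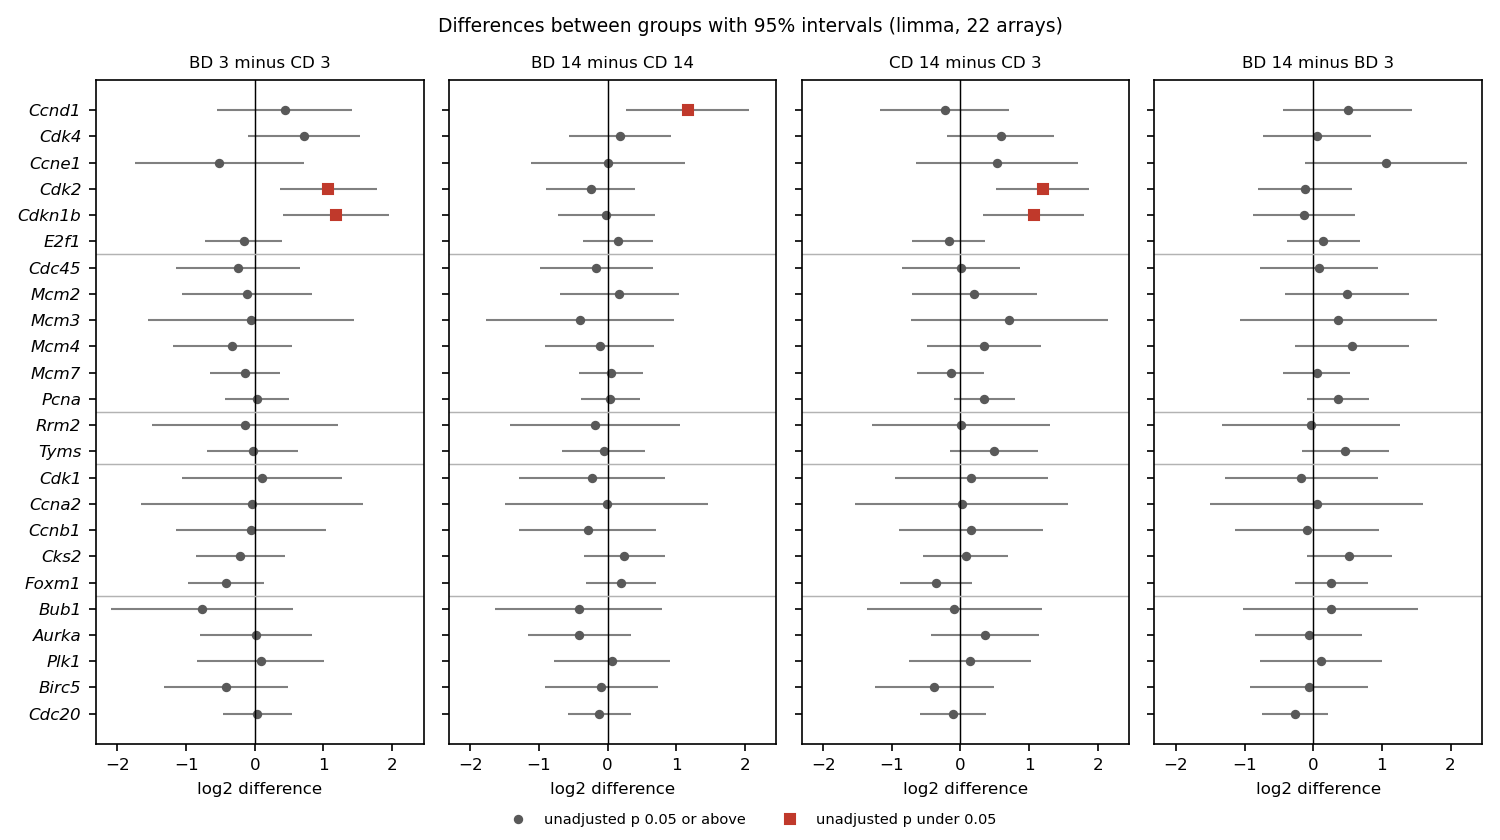
Log2 difference (horizontal axis) of each of the 24 tested genes in the 4 comparisons of 2 groups, as points with 95% intervals from limma. Red squares are the genes with an unadjusted p under 0.05, which were Cdk2 and Cdkn1b in both comparisons that use CD 3, and Ccnd1 between BD 14 and CD 14.

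The other tested G1 genes were Cdk4, the kinase partner of cyclin D, and E2f1, the factor that cyclin-dependent kinases release. The log2 ratios of Cdk4 in CD 3 were −0.98, 1.36, −0.41, −1.82 and −0.31, a spread that held all rats of the other groups. Its difference between BD 3 and CD 3 was 0.71 (95% interval −0.11 to 1.53, adjusted p 0.779). Without CD 3 replicate 2, which is the high rat of its group, this difference was larger and had an unadjusted p under 0.05. The same held without BD 3 replicate 3. Without CD 3 replicate 2, the difference between CD 14 and CD 3 and the interaction also had such a p. E2f1 had group means between −0.44 and −0.26, and its differences between groups lay between −0.17 and 0.15. A second tested probe of E2f1 gave differences between 0.02 and 0.55.

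Among the licensing and fork genes, Mcm2, Mcm3, Mcm4 and Mcm7 encode subunits of the helicase, Cdc45 its activator and Pcna the clamp of the DNA polymerases. Mcm3 varied most among the rats of CD 3, BD 3 and BD 14. The CD 3 rats had log2 ratios of −1.64, −1.59, −3.50, 0.85 and 0.11, and in BD 3 they were −0.33, −3.27, −0.17, −0.46 and −1.81. The lowest, median and highest values were −0.90, −0.41 and 0.05 in CD 14 and −3.32, −0.33 and 0.09 in BD 14. CD 3 replicate 3, BD 3 replicate 2 and BD 14 replicate 2 were the low rats, and the groups overlapped. The standard deviation in CD 3 was 1.70, and the differences were −0.05 between BD 3 and CD 3, −0.40 between BD 14 and CD 14, 0.71 between CD 14 and CD 3 and 0.36 between BD 14 and BD 3. A second tested probe of Mcm3 gave −0.30, 0.02, 0.52 and 0.84 in that order. Under the slide block, the differences between the times changed sign to −0.41 and −0.43.

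Pcna varied least among the licensing and fork genes in BD 14. The log2 ratios of Pcna in CD 3 were −0.44, −0.30, −0.56, 0.44 and 0.33, and in BD 3 they were −0.02, −0.68, 0.15, 0.08 and 0.10. The lowest, median and highest values in CD 14 were −0.17, 0.30 and 0.65, and in BD 14 they were 0.02, 0.29 and 0.46. Every BD 14 rat was above the reference, and the groups overlapped. The difference between the times was 0.35 on either diet, with a 95% interval of −0.10 to 0.80. For Mcm4 this difference was 0.35 with the control diet and 0.56 with the BASE-diet, and both intervals include 0. Both changed sign under the slide block, on either diet, to −0.20 and −0.39 for Pcna and to −0.40 and −0.22 for Mcm4. Cdc45, Mcm2 and Mcm7 had group means between −0.43 and 0.06. The median difference of the 6 tested licensing and fork genes was −0.13 between BD 3 and CD 3, −0.04 between BD 14 and CD 14, 0.28 between CD 14 and CD 3, and 0.36 between BD 14 and BD 3.

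Of the genes of deoxynucleotide supply, Rrm2 (probe A_64_P104009, chromosome 6, 42359210 to 42359269) encodes the small subunit of ribonucleotide reductase, which is made in S phase. The log2 ratios of Rrm2 in CD 3 were −1.80, −2.58, −3.30, −1.58 and −2.74, and in BD 3 they were −1.27, −3.18, −0.66, −3.32 and −4.30. In CD 14 the lowest, median and highest values were −3.96, −2.72 and −0.92, and in BD 14 they were −3.65, −2.73 and −1.43. The groups overlapped over nearly their whole range, and the group means lay between −2.58 and −2.39. The differences between groups lay between −0.19 and 0.01, with 95% intervals from −1.50 to 1.21 at 3 months and from −1.42 to 1.05 at 14 months for diet. Under the slide block, the differences of Rrm2 ran from −0.75 between BD 14 and BD 3 to 0.56 between BD 3 and CD 3. In Cy5 alone they ran from −0.62 between BD 3 and CD 3 to 0.83 between BD 14 and BD 3. In neither setting was an unadjusted p under 0.05.

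Tyms encodes thymidylate synthase, and unlike Rrm2 it was not below the reference in most rats. The log2 ratios of Tyms in CD 3 were −0.60, 0.04, 0.74, 1.03 and −0.17, and in BD 3 they were 0.46, 0.10, 0.60, −0.03 and −0.26. With 6 rats each, the lowest, median and highest values in CD 14 were 0.08, 0.67 and 1.32, and in BD 14 they were 0.07, 0.64 and 1.46. All 12 rats of 14 months were above the reference, and rats of both 3-month groups lay on either side of it. The difference between the times was 0.49 on the control diet (standard error 0.31, adjusted p 0.628 by limma) and 0.47 on the BASE-diet (standard error 0.31, adjusted p 0.756). These like values came apart in other settings, at 0.93 on the control diet and −0.17 on the BASE-diet with the slide as a block, and at −0.030 and 0.96 in Cy5 alone.

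Cdk1 (probe A_42_P580844, chromosome 20, 20043755 to 20043814) encodes the kinase that drives entry into mitosis. In CD 3, Cdk1 had log2 ratios of −1.46, −2.49, −3.60, −1.86 and −3.08, and in BD 3 they were −1.21, −3.19, −1.30, −2.90 and −3.38. In CD 14 the lowest, median and highest values were −3.01, −2.61 and −1.38, and in BD 14 they were −4.50, −2.57 and −1.19. Both the lowest and the highest of all rats were in BD 14, at replicates 2 and 1. The group means lay between −2.57 and −2.34, and the differences between −0.23 and 0.16. Under the slide block, the differences of Cdk1 lay between −0.54 and 0.26, and in Cy5 alone between −0.55 and 0.34.

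Ccna2 (probe A_64_P001740, chromosome 2, 123062781 to 123062840) encodes cyclin A2, the partner of Cdk2 in S phase and of Cdk1 after it. The log2 ratios of Ccna2 in CD 3 were −2.78, −1.96, −3.65, −0.61 and −2.69, and in BD 3 they were −0.75, −3.63, −0.96, −2.39 and −4.15. At 14 months, the CD 14 rats had a lowest, median and highest value of −4.07, −2.20 and −0.50, and in BD 14 they were −4.74, −2.06 and −0.80. The 4 group means lay between −2.38 and −2.32, while the standard deviation within groups was 1.14 to 1.53. Under the slide block, the differences of Ccna2 ran from −1.45 between BD 14 and BD 3 to 1.01 between BD 3 and CD 3. In Cy5 alone they lay between −0.63 and 0.90, and in neither setting was an unadjusted p under 0.05. A second tested probe of the gene gave differences between −0.28 and 0.16.

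Ccnb1 encodes cyclin B1, with means of −1.96 in CD 3 and −2.01 in BD 3, and of −1.81 in CD 14 and −2.10 in BD 14. All rats but CD 14 replicate 4, at 0.08, were below the reference. Foxm1, a transcription factor of genes of G2 and mitosis, had group means of −0.16, −0.58, −0.52 and −0.32 in the same order, with CD 3 replicate 4 highest at 0.77. With CD 3 replicate 5 left out, Foxm1 had an unadjusted p under 0.05, lower in BD 3 and in CD 14 than in CD 3 and with a positive interaction. With all arrays and the slide as a block, its differences changed sign. They went from −0.42 to 0.092 between BD 3 and CD 3 and from −0.36 to 0.32 between CD 14 and CD 3. Cks2, a small protein that binds cyclin-dependent kinases, had group means of 0.18, −0.03, 0.25 and 0.49. It was above the reference in most rats.

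Plk1 (probe A_44_P463313, chromosome 1, 181012641 to 181012700) encodes a kinase of centrosomes, spindle and cell division. In CD 3, Plk1 had log2 ratios of −3.06, −1.22, −2.52, −1.22 and −2.09, and in BD 3 they were −0.73, −2.73, −1.25, −1.78 and −3.18. In CD 14 the lowest, median and highest values were −2.36, −1.96 and −1.38, and in BD 14 they were −2.92, −1.77 and −0.82. Every rat was below the reference, and the groups overlapped. The group means lay between −2.02 and −1.82, and the differences between 0.06 and 0.14.

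Bub1, a kinase of the spindle checkpoint, had the lowest difference of the 24 genes in both diet comparisons of group means. Its log2 ratios in CD 3 were −1.18, −0.79, −1.72, 1.08 and −2.22, and in BD 3 they were −0.93, −2.86, −0.37, −1.43 and −3.07. The lowest, median and highest CD 14 values were −2.23, −0.92 and −0.32, and in BD 14 they were −3.70, −1.25 and −0.54. The groups overlapped, with CD 3 replicate 4 the only rat above the reference. The difference was −0.77 at 3 months (95% interval −2.10 to 0.56, adjusted p 0.863) and −0.42 at 14 months (95% interval −1.64 to 0.79, adjusted p 0.956). Neither the sign nor the rank held in every setting. The slide block gave Bub1 a difference of 0.054 at 3 months, where Mcm4 was lowest at −0.65, and of −1.10 at 14 months, where Ccnb1 was lowest at −1.20. In Cy5 alone it differed by −1.51 and 0.53, and with array weights by −0.16 and 0.015.

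The remaining tested genes of mitosis are Aurka, a kinase of the spindle poles, Birc5, which encodes survivin of the chromosomal passenger complex, and Cdc20, which activates the ubiquitin ligase that starts anaphase. Aurka had group means of −0.93 in CD 3, −0.92 in BD 3 and −0.98 in BD 14, and a mean of −0.57 in CD 14. Birc5 had group means of −0.67, −1.08, −1.05 and −1.14 in the same order. Cdc20 had group means of −0.56, −0.52, −0.66 and −0.78, with all rats between −1.29 and −0.03. Both Aurka and Birc5 were below the reference in 20 of 22 rats. For none of the 3 did a difference reach an unadjusted p under 0.05.

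Of the proliferation markers, Mki67 had no probe by name and Top2a, which untangles replicated DNA, was not tested. The log2 ratio of Top2a was below 0 in every rat, between −4.39 in BD 14 replicate 2 and −0.35 in BD 14 replicate 1. Ccnb2, also not tested, was below 0 in every rat, between −5.63 and −0.43. On arrays where a spot is not above background the software puts a surrogate in place of the signal, so that ratios from arrays without a clear liver signal may rest on a surrogate.

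Some rats stood low or high for many of these genes. Over the 12 tested genes of supply, of the S, G2 and M cyclins and of mitosis, the median log2 ratio was −2.78 in BD 14 replicate 2, which had the lowest value of all rats in 5 of the 12, and −2.57 in BD 3 replicate 5, lowest in 4. The highest medians were −0.34 in CD 3 replicate 4, −0.42 in BD 3 replicate 3 and −0.47 in CD 14 replicate 4. CD 3 replicate 4 is the array with the dimmest signal. The lowest, median and highest of these rat medians were −1.73, −1.05 and −0.34 in CD 3 and −2.57, −1.51 and −0.42 in BD 3. They were −1.98, −0.96 and −0.47 in CD 14 and −2.78, −1.20 and −0.59 in BD 14, so that the spread within each group was larger than the distance between group medians.

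Over the 24 genes, the median difference was −0.05 between BD 3 and CD 3, where that over all probes was 0.03, and 9 genes were higher and 15 lower. Between BD 14 and CD 14 it was −0.04, beside 0.05 over all probes, with 10 genes higher and 14 lower. It was 0.15 between CD 14 and CD 3, beside 0.03, with 17 genes higher and 7 lower, and 0.10 between BD 14 and BD 3, beside 0.07, with 16 higher and 8 lower. The median width of the 95% interval of a difference was 1.76, 1.61, 1.69 and 1.69 in these comparisons. Under the slide block, 13 of the 24 genes changed the sign of their difference between BD 3 and CD 3, 5 between BD 14 and CD 14, 9 between CD 14 and CD 3 and 11 between BD 14 and BD 3, and in Cy5 alone 5, 14, 12 and 9 did. The number of arrays limits which differences could be detected.

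Of 101 other cell cycle genes on a list by role, 96 were on the array and 69 were tested, and by limma 0 passed after adjustment in any comparison. At an unadjusted p under 0.05, 2 (2.90%) were higher and 2 lower between BD 3 and CD 3, beside 4.99% and 2.11% of all probes. They were Dut (0.68), which removes dUTP, cyclin D3 (Ccnd3, 0.58), and the origin recognition subunits Orc2 (−1.04) and Orc3, whose mean was −0.52 in BD 3 and 0.48 in CD 3. For diet at 14 months, 3 (4.35%) were higher and 0 lower, beside 3.79% and 0.803%, namely the DNA polymerase gene Pole (0.88), Orc5 (0.85) and the repressor E2f7 (0.77). Between CD 14 and CD 3, 5 (7.25%) were higher and 0 lower, beside 6.85% and 3.29%, with the largest differences in the kinase inhibitor Cdkn2b (0.88), the E2F partner Tfdp1 (0.73), the inhibitor Cdkn2d (0.66) and Ccnd3 (0.65). For time on the BASE-diet, 4 (5.80%) were higher and 1 (1.45%) lower, beside 4.76% and 2.68%, namely the inhibitor Cdkn1c (1.63), Cdkn2b (1.26), Pole (1.20), the single-strand binding gene Rpa1 (0.98) and the cyclin F gene Ccnf (−0.79). In the interaction, Pole (1.60) and Orc3 (1.12) were positive, 2.90% beside 2.48% of all probes, and 0 were negative, beside 2.32%.

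Many of these values, or their p alone, changed in a fit with the slide as a block or with single arrays left out. With the slide as a block, Orc3 differed by 0.29 at 3 months and by −0.90 in the interaction, Cdkn2d by −0.39 between CD 14 and CD 3 and Ccnf by 0.078 between BD 14 and BD 3, all with a change of sign. Cdkn2b fell to 0.065 between BD 14 and BD 3, and at 3 months Dut fell to 0.33 and Orc2 was −0.54. Pole fell to 0.63 between BD 14 and CD 14, to 0.65 between BD 14 and BD 3 and to 0.95 in the interaction, and Orc5 fell to 0.60. The unadjusted p under 0.05 was lost for these values of Cdkn2b, Dut, Orc2, Pole and Orc5, and also for Ccnd3 at 3 months (0.72) and Rpa1 (1.28). Under normexp correction with loess, Pole was 0.098, 0.15 and 0.22 in its 3 comparisons and E2f7 was 0.14, again without such a p, and Orc5 was 0.21. Between CD 14 and CD 3, that correction gave 0.31 for Cdkn2b and 0.30 for Cdkn2d, also without such a p. In Cy5 alone, 20 of the 25 named results kept the direction without such a p. Among them were Cdkn2b (0.34) and Tfdp1 (0.38) between CD 14 and CD 3. Cdkn2b (0.79) and Ccnf (−0.31) between BD 14 and BD 3, and E2f7 (0.34), were others. The mean over all probes of Orc2 differed by −0.11. Without CD 3 replicate 4, the 3-month differences were 0.29 for Dut, 0.50 for Ccnd3, −0.56 for Orc2 and −0.64 for Orc3, and none had an unadjusted p under 0.05. That p was also lost for Dut without CD 3 replicate 1 or 3 or any of BD 3 replicates 1 to 4, though the differences there, of up to 0.70, were close to that with all arrays. It was lost for Ccnd3 without CD 3 replicate 1 or BD 3 replicate 2 or 3 (0.39 to 0.52), and for Orc3 without BD 3 replicate 2 (−0.87). Without BD 14 replicate 1, it was lost between BD 14 and CD 14 for Pole (0.69), Orc5 (0.75) and E2f7. Orc5 also lost it without CD 14 replicate 1, and E2f7 without BD 14 replicate 2 or CD 14 replicate 4 (lowest 0.57). Between CD 14 and CD 3, Cdkn2b lost it without CD 14 replicate 4 or 5 or CD 3 replicate 1 or 5 (lowest 0.59), and Tfdp1 was 0.47 without CD 3 replicate 1. Cdkn2d lost it without 15 of the 22 arrays, with differences of 0.47 to 0.68 there, and kept it only without CD 3 replicate 1 or 2, CD 14 replicate 1, 3 or 6, BD 3 replicate 3 or BD 14 replicate 6. For the arrays of BD 3 and BD 14, which are not part of that difference, the p alone moved. Rpa1, between BD 14 and BD 3, lost it without BD 14 replicate 1, 2, 4 or 5 or BD 3 replicate 4 or 5 (0.83 to 0.99). The interaction of Orc3 lost it without 16 of the 22 arrays, with values of 0.77 to 1.18 there, and kept it only without CD 3 replicate 1 or 5, BD 3 replicate 4, CD 14 replicate 4 or 5 or BD 14 replicate 4.

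Cdkn1c encodes p57, an inhibitor of cyclin-dependent kinases. Its log2 ratios had a lowest, median and highest value of −0.37, 1.11 and 2.53 in CD 3 and of −0.30, 0.31 and 0.84 in BD 3. They were 1.03, 1.65 and 2.76 in CD 14 and 0.95, 2.16 and 2.76 in BD 14, so that every BD 14 rat lay above every BD 3 rat. The groups of 2.26% of all tested probes did not overlap in that comparison. The difference of 1.63 had a standard error of 0.43 and an adjusted p of 0.304 by limma. The 18 tested genes of the list's other mitosis genes were, as Cdk1 and Plk1, mostly below the reference, with group medians below 0 for 16 in CD 3 and 17 in BD 3, and for 16 in CD 14 and 15 in BD 14, beside 51.6%, 48.5%, 50% and 43.2% of all tested probes. The medians of their group means were −0.92, −0.84, −0.33 and −0.53.

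Promoter sequences of 28 of the 38 genes were found in the RefSeq table for the rat build GRCr8, each with 250 bases before and 50 after the start. Ccnd1, Ccne2, E2f1, Cdc6, Mcm4, Rrm2, Ccna2, Foxm1, Aurkb and Ube2c were not among them. The windows were searched on both strands for TTTGAA, the core of the cell cycle homology region, for CCAAT, and for the E2F motifs TTTGGCGC, TTTCCCGC and TTTCGCGC. TTTGAA was found in 12 of the 28 (42.9%) and in 18.3% of all 33469 promoters of that length, and CCAAT in 21 (75.0%) and in 37.5% of all. An E2F motif was found in 7 (25.0%) and in 1.72% of all promoters, namely those of Mcm2, Mcm3, Mcm5, Mcm6, Mcm7, Tyms and Cdk1. By motif, TTTCGCGC was in 6 promoters and 0.326% of all, TTTGGCGC in 3 and 0.493%, and TTTCCCGC in 3 and 0.974%. A match is a description of the letters in the window, and nothing about binding was measured.

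Shown are the promoters of Cdk1 and Plk1, which were below the reference in every rat, and of Cdkn1b and Cdk2, which passed the unadjusted threshold together. Capitals mark the matches on either strand, of which Cdk1 has 6, Plk1 2, Cdkn1b 2 and Cdk2 1.
Cdk1, chr20:19265043-19265342, plus strand: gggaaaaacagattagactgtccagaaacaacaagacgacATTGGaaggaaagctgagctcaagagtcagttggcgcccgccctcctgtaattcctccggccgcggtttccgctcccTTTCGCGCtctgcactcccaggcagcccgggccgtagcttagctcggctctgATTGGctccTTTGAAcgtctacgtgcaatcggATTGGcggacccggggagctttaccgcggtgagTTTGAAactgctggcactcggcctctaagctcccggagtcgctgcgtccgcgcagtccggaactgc
Plk1, chr1:186147408-186147707, plus strand: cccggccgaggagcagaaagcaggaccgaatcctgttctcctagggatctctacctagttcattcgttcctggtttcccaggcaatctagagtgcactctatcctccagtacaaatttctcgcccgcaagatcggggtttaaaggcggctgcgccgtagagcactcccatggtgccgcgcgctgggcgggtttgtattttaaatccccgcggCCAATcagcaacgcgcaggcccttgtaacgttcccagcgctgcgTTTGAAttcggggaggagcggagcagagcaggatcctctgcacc
Cdkn1b, chr4:169491254-169491553, plus strand: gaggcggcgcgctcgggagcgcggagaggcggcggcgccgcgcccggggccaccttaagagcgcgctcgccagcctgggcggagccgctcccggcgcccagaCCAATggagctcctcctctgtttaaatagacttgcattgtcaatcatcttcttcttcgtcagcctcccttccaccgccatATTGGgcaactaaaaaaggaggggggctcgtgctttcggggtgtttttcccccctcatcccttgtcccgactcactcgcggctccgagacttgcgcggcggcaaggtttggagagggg
Cdk2, chr7:1721829-1722128, minus strand: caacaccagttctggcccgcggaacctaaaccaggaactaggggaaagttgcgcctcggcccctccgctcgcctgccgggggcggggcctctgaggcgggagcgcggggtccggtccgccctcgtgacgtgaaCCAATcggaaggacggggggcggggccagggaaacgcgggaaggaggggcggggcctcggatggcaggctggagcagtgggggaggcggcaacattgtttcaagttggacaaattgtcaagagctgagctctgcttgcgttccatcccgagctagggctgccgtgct
The Cdk1 window held all kinds of motif searched except 2 of the E2F motifs, the Plk1 window TTTGAA and CCAAT, and those of Cdkn1b and Cdk2 only CCAAT.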

How the data were processed

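Liver RNA of 22 rats was measured on 22 two-colour arrays. The log10 ratio of Cy5 to Cy3 was deposited by the authors as written by Agilent Feature Extraction (version 10.7.3.1 in the methods, 10.10.1.1 per the file headers), with background subtracted and dyes normalized within each array. The intensity values were deposited by the authors as scanner brightness per spot. The table of the entries that the authors found significant was not used.

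The members and lists were chosen with earlier results of these data known. Control spots and those that the software marks as non-uniform were dropped, the log10 ratios converted to log2 and averaged over the spots of a probe. A gene took the probe of its name with the highest mean Cy5 signal. No scaling between arrays was added. Of 30367 probes, 19433 passed the filter, 698 of them lacking a value on some array.

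The 4 group means were fitted by limma 3.58.1 (R 4.3.3) with eBayes, with Benjamini-Hochberg adjustment over 19433 probes, and single genes also by exact two-sided permutation tests. Every member is named, and of the other cell cycle genes at most 4 higher and 4 lower per comparison, by size of difference among those with an unadjusted p under 0.05. Cdca3, Mybl2 and Ccng1 were chosen after their values were seen, as were the marker genes named. The precision rests on signal over background and on the number of arrays. The alternatives were normexp (offset 50) with loess, median-centred arrays, Cy5 alone, no filter and a strict filter (13860 probes), the mean of all probes of a gene, array weights, the slide as a block, the number of the rat as a block, differences within slides, the methods' tests and each array left out. The limma fit was tested on simulated data with independent noise and no slide effect, so slide effects were not covered. Python 3.11.15, numpy 2.4.6, pandas 2.3.3 and matplotlib 3.10.9 made the summaries.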

Additional observations from a re-analysis of the deposited data

Results flagged for a closer look

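Of 96 groups of values of the 24 tested genes, 10 held a rat that stood apart from the others of its group by Dixon's criterion, and chance flags about 1 in 20 groups. BD 14 replicate 2 stood low for Ccne1 (−1.94), Mcm2 (−1.98), Mcm3 (−3.32) and Bub1 (−3.70). CD 14 replicate 4 stood high for Ccne1 at 1.24, and CD 14 replicate 3 low for Cdc20 at −1.06. CD 3 replicate 4 stood low for Ccnd1 at −2.40, and BD 3 replicate 2 low for Pcna at −0.68. For Cdkn1b, BD 3 replicate 4 stood high at 1.28 and CD 14 replicate 6 high at 0.89.

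The diet difference of 2 genes was another at 14 than at 3 months by limma's interaction term at an unadjusted p under 0.05, by −1.32 for Cdk2 and −1.20 for Cdkn1b, beside 2.32% of all probes with a negative interaction at that p, and 0 of the 24 genes passed after adjustment. The slide block gave −0.11 and −0.87 and Cy5 alone 0.055 and −0.35, without such a p in either setting. The 3-month side of both rests on the CD 3 rats.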

How the results depend on the processing

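The values below are counts of the 24 tested genes or log2 differences, and the cause of a change was not tested, except that the strict filter left 22 genes, without Cdk2. The share of all probes at an unadjusted p under 0.05 is not given for each setting, so the counts cannot be set against it. At an unadjusted p under 0.05, the count between BD 3 and CD 3 (2) was 0 in Cy5 alone, 1 with the slide block and 1 with the strict filter. Between BD 14 and CD 14 (1) it was 0 in Cy5 alone and 0 by the methods' tests. Between CD 14 and CD 3 (2) it was 0 in Cy5 alone, 1 with array weights, 0 with the slide block, 1 with the strict filter and 3, with Mcm7 lower, without 2 arrays, CD 3 replicate 1 and CD 14 replicate 1, that had many non-uniform spots, a setting chosen after seeing the data. Between BD 14 and BD 3 (0) it was 3 in Cy5 alone, 5 with array weights, 1, Ccnd1, with the slide block and 1 of 37 with no filter, namely Mcm5, which is not among the 24. For the interaction (2) it was 1 in Cy5 alone, with array weights, with the slide block, with the strict filter and without those 2 arrays. For the F test (2) it was 0 in Cy5 alone, 3 with array weights and 1 with the slide block, the strict filter and without those 2 arrays. After adjustment the counts were 0 in these settings. In every comparison the median difference changed sign under at least 1 alternative. Between BD 3 and CD 3 (−0.05) it ran from −0.24 in Cy5 alone to 0.29 within a slide, with 0.18 for the slide block. Between BD 14 and CD 14 (−0.04) it ran from −0.35 with the slide block and within a slide to 0.42 in Cy5 alone, and between CD 14 and CD 3 (0.15) from −0.12 in Cy5 alone to 0.34 within a slide. Between BD 14 and BD 3 (0.10) it ran from −0.37 with the slide block to 0.54 in Cy5 alone, and for the interaction (0.02) from −0.71 to 0.74 in the same settings. With no filter, 27 of 37 genes had a median below the reference, in place of 17 of 24.

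Of single genes, Cdk2 changed sign with the slide block at 3 months (−0.14) and between CD 14 and CD 3 (−0.19, and −0.69 within a slide), and in Cy5 alone for the interaction (0.055). Cdkn1b was −0.032 within a slide between CD 14 and CD 3. Orc3 was 0.29 with the slide block and 0.32 within a slide at 3 months, and −0.90 with the slide block for the interaction. Cdkn2d was −0.18 in Cy5 alone, −0.39 with the slide block and −0.56 within a slide, and Ccnf was 0.078 with the slide block. Apart from the differences within slides, 8 of 261 values of the named genes changed sign, 67 kept the direction without an unadjusted p under 0.05 and 186 kept both. Without a change of sign, 31 were smaller by more than 1.5 times, 12 of them with normexp and loess, 9 in Cy5 alone, 7 with the slide block, 2 with array weights and 1 as the mean over all probes. Among these, Cdk2 was 0.22 at 3 months and 0.49 between CD 14 and CD 3 in Cy5 alone, and Pole was 0.098, 0.15 and 0.22 with normexp and loess. Within slides, where the 3-month comparison has 1 CD 3 array and the control-diet comparison 1 array of each group, so that stability there cannot be judged, 12 of 16 values kept the sign. With single arrays left out, 486 of 550 kept direction and p, 64 kept the direction alone and 0 changed sign. Of the 25 named results, 12 lost the unadjusted p under 0.05 without at least 1 array.

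With each array left out in turn, the adjusted count was 0 to 2 for both comparisons that use CD 3 and for the F test, the highest without CD 3 replicate 5, and 0 to 0 in the others. The unadjusted count was 2 to 3 between BD 3 and CD 3, 1 to 1 between BD 14 and CD 14, 2 to 4 between CD 14 and CD 3, 0 to 2 between BD 14 and BD 3, 1 to 3 for the interaction and 1 to 3 for the F test. The median difference was −0.25 to 0.09, −0.16 to 0.09, −0.01 to 0.33, −0.06 to 0.34 and −0.20 to 0.26 in the order of the comparisons. The number of genes below the reference was 17 to 19, and the share well above background 76.2% to 78.1%.

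The rat numbers do not pair the rats, since the groups are different animals and the deviations of rats of equal number correlated between −0.272 and 0.286. With the replicate block, Cdk2 differed by 1.07 at 3 months and 1.25 between CD 14 and CD 3, and Cdkn1b by 0.99 in the latter. Signal over background limited the tests to 24 of 37 genes.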

Other observations

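Lying below the reference was not general among the 69 other tested cell cycle genes. The number with a group median below 0 ran from 36 (BD 14) to 49 (BD 3). Among the 26 licensing and replication genes of that list it ran from 10 (BD 14) to 19 (BD 3). Among its 25 cyclins, kinases, inhibitors, Rb and E2F genes it ran from 11 (BD 14) to 16 (CD 3). The share of all tested probes ran from 43.2% (BD 14) to 51.6% (CD 3). Mybl2, the B-Myb factor of mitotic genes, had log2 ratios with a lowest, median and highest value of −0.07, 1.24 and 3.39 in CD 3, −0.90, 0.85 and 2.31 in BD 3, −1.16, 2.67 and 3.77 in CD 14 and −1.33, 3.19 and 4.99 in BD 14. Cyclin G1 (Ccng1), a target of p53, was above the reference in every rat, with group means of 2.08, 1.26, 1.93 and 1.99 in the same order. Cdca3, a trigger of mitotic entry, was below it in every rat, with group means of −3.11, −2.76, −2.76 and −2.92.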
